A study of Bos indicus x Bos taurus with 11 samples.

Results

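Glycolysis and hypoxia response genes were examined in skin fibroblasts of bovine fetuses, as 37 genes chosen by name. All 37 were found among the 27398 rows of the total count table, and 26 of them among the 9716 rows of the allelic table. Per the labels, the cells were primary cultures from fetuses at gestation day 105, each an F1 cross between Angus (Bos taurus taurus) and Brahman (Bos taurus indicus) cattle. The 5 control fetuses (CON_B, 2 females and 3 males) came from artificial insemination. In the LOS group (large offspring syndrome), 3 female and 3 male fetuses were conceived by assisted reproduction and weighed more than the 97th centile of controls, so that conception method and overgrowth go together in these groups and cannot be told apart. Each library is a separate fetus. All cultures shared a serum-containing medium, and the labels give no low-oxygen arm and no glucose treatment, so that every value below is a level under ordinary culture.

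Glycolysis splits glucose into pyruvate through a chain of cytosolic enzymes, and lactate dehydrogenase and the monocarboxylate transporters carry its end product out as lactate. When oxygen is short, the prolyl hydroxylases EGLN1 and EGLN3 no longer mark the transcription factor subunit HIF1A for destruction, and HIF1A then raises transcription of glucose transporters, most glycolytic enzymes, the angiogenic factor VEGFA and collagen prolyl hydroxylases. Fibroblasts in culture draw much of their energy from this pathway, and collagen-making cells depend on prolyl hydroxylases for a stable triple helix.

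Total counts ran from 12084822 to 19297167 per library, and no library repeated another of its group (chi-square per degree of freedom 21.2 to 98.2 between them). The 12 fibroblast markers fixed for this check were all tested and summed to 63700 to 73600 CPM (counts scaled to library size) in controls and 62600 to 76900 CPM in LOS. Sums of the other lists were at most 339 CPM in controls and 141 CPM in LOS. The highest of these was the melanocyte and Schwann cell list, mainly from MITF (38.7 to 151 CPM over all libraries) and PMEL (3.95 to 166 CPM), both at their highest in control 2. The part of these cells in the low levels of control 2 described below was not tested. The endothelial list summed to 13.2 to 58.5 CPM in controls and 18.9 to 72.5 CPM in LOS, mainly from the VEGFA receptor FLT1 (8.39 to 68.7 CPM). Its members TEK and VWF were at 0.68 to 2.59 CPM, CDH5 and PECAM1 were under 1 CPM in every library, and the VEGFA receptor KDR was at 0 CPM in 10 of 11 libraries and at 0.0675 CPM in control 1.

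No gene of the set passed the test between LOS and control, and in bulk cultures fewer cells of a type and less RNA per cell cannot be told apart. A gene was called when its Benjamini-Hochberg adjusted p, over all 16946 genes tested, was under 0.05 in edgeR's quasi-likelihood test with sex as a term. Of the 37 genes 36 passed the filter on low counts, the exception being CA9, and 0 of 36 were called, as were 0% of all genes tested, with an adjusted p of at least 0.932 for each. DESeq2 and limma voom also called 0 of the 36, and over all genes they called 5 and 0. At an unadjusted p under 0.05 there were 2 of the 36, SLC2A3 and SLC16A3, both higher in LOS, where 4.44% of all genes lay under that threshold in either direction and 2.48% on the higher side. In 0 of 36 genes did the groups fail to overlap, against 0.23% of all genes tested. On the log2 scale, 22 of the 36 had a fold change above 0 in LOS, against 49.8% of all genes, with a median of 0.06 against -0.00070.

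**Figure D1:**
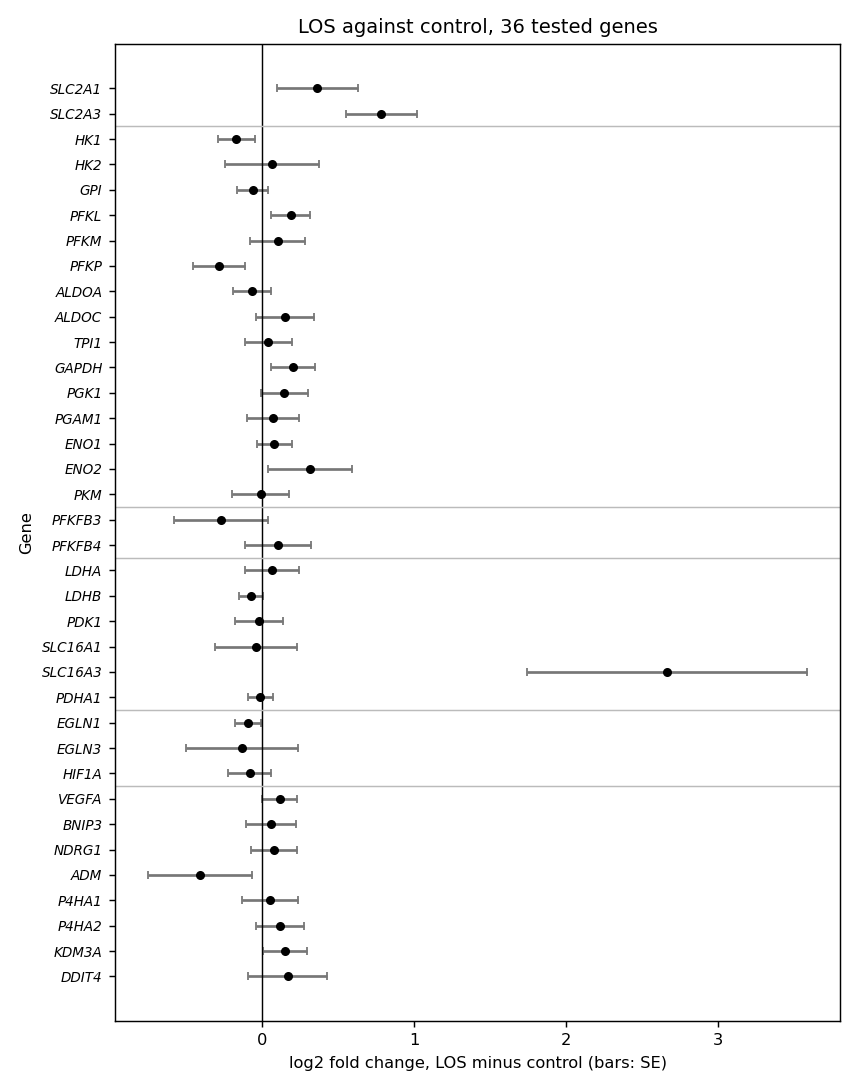
Log2 fold change of LOS minus control (x axis) for the 36 tested genes (y axis, grouped by role), with bars giving the standard error of edgeR's fit. Most points lie within 0.3 of 0, with SLC2A3 at 0.78 and SLC16A3, a gene of at most 22 reads per library, at 2.67.

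That count of 22 turned on single libraries. Without LOS 6 it was 13 of 35 tested genes, without control 2 it was 16 of 36, and without LOS 5 it was 26 of 35. LOS 6 had the highest level of all 11 libraries in 15 of the 36 genes, whereas it was highest in 12.2% of all genes tested. Control 2 was the lowest library in 15 of the 36, against 10.5% of all genes. The median of the 36 genes relative to the control mean was 0.33 log2 units in LOS 6 and -0.19 in control 2, and between -0.12 and 0.13 in the other 9 libraries. These libraries had nearly the same depth, with total counts of 19297167 and 19272354, the highest of their groups. The summed level of the 15 glycolytic enzyme genes was 5471 CPM in LOS 6 and 3516 CPM in control 2, the lowest of all libraries. Control 5, at 5539 CPM, was slightly above LOS 6, and LOS 5, at 3565 CPM, was close to control 2. High and low sums were thus met in both groups. GAPDH and PKM made up much of the sum, with 1520 and 1940 CPM in control 5 and 1765 and 1487 CPM in LOS 6. By the median of the 36 genes, control 5 was at 0.12 and LOS 5 at -0.12, less extreme than LOS 6 and control 2.

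**Figure D2:**
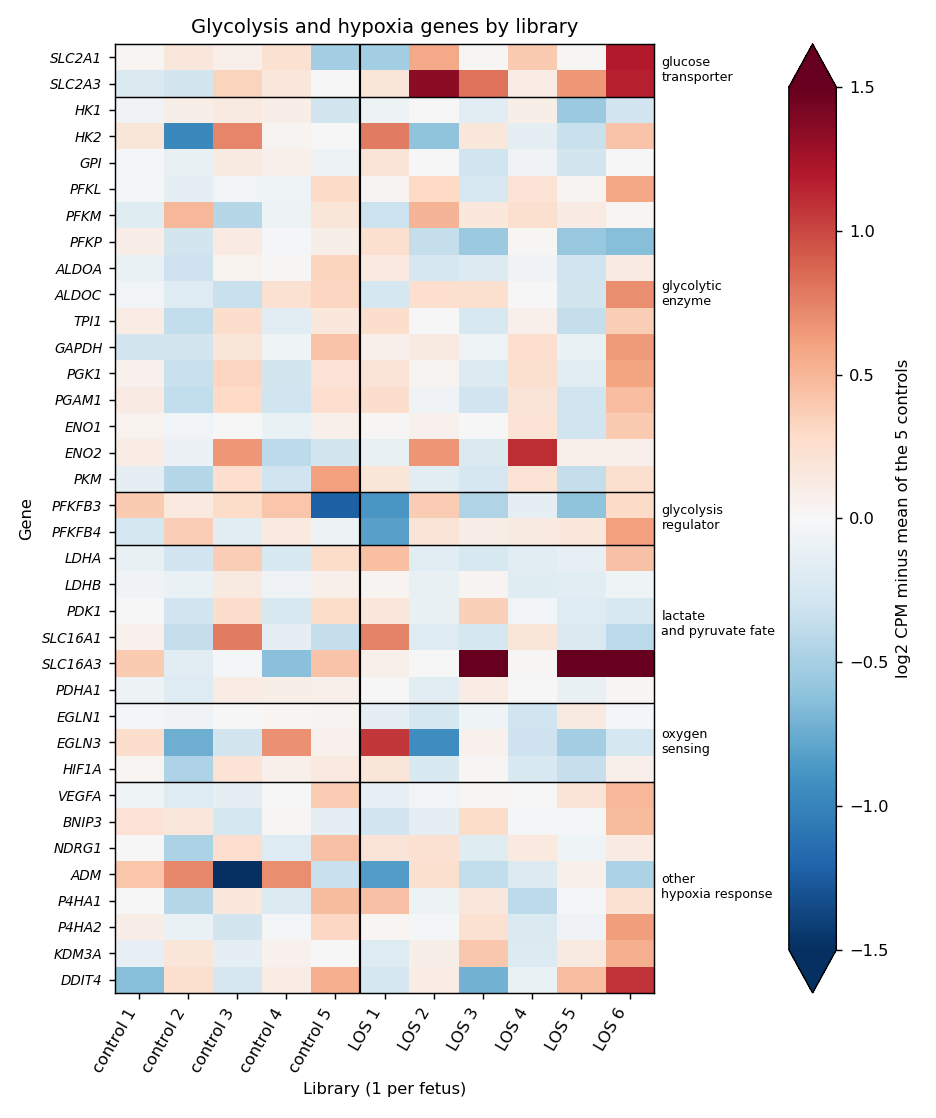
Level of each tested gene (rows, grouped by role) in each library (columns, 5 controls left of the line and 6 LOS libraries right of it), as log2 CPM minus the mean of the controls, with colours ending at 1.5 either way. LOS 6 is highest in 15 genes and control 2 lowest in 15, while neighbouring libraries of the same group differ as much as the groups do.

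Glucose enters fibroblasts through the facilitative transporters SLC2A1 (GLUT1) and SLC2A3 (GLUT3). SLC2A3 (chromosome 5, 101438340 to 101451254, minus strand, build ARS-UCD1.2 as for all positions here) stood at 59.58, 57.18, 87.63, 77.79 and 69.05 CPM in controls 1 to 5. In LOS its lowest level was 75.0 CPM, its median 115.5 CPM and its highest 175.3 CPM, in LOS 2. All 6 LOS libraries lay above the control median, and LOS 1 and LOS 4 lay within the control range. Controls averaged 70.3 ± 12.7 CPM (SD, n = 5) and LOS libraries 119 ± 40.4 CPM (SD, n = 6), a log2 fold change of 0.78 ± 0.23 (SE) that was not called (edgeR adjusted p = 0.932, unadjusted p = 0.00655). Leaving out single libraries moved it between 0.63 and 0.93. SLC2A3 counts were not whole in any of the 11 libraries, as they would be if reads were divided between this gene and another locus, and the files do not name such a locus. SLC2A1 was at 5.44 to 9.15 CPM in controls and at 5.42 to 17.9 CPM in LOS, with LOS 6 at the top and LOS 1 at the bottom (0.36 ± 0.27 on the log2 scale).

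Early steps of glycolysis are run by hexokinase and phosphofructokinase, each made in several forms. Of the hexokinases, HK1, the housekeeping form, varied little (111.5 to 147.9 CPM in controls, 91.58 to 143.3 CPM in LOS), and all 6 LOS libraries were below the control median of 143.6 CPM (-0.17 ± 0.12 on the log2 scale, not called). HK2, the form that HIF1A and insulin raise, spread more widely: 44.31, 19.8, 64.67, 40.18 and 39.18 CPM in controls 1 to 5 and 66.8, 25.62, 43.72, 35.37, 30.98 and 52.28 CPM in LOS 1 to 6. The lowest and the highest level of HK2 were thus 3.37-fold apart, while its group means of 41.6 and 42.5 CPM were nearly the same. Among the phosphofructokinase subunits, the platelet form PFKP averaged 81.6 ± 8.92 CPM in controls (n = 5) and 67.2 ± 17.9 CPM in LOS (SD, n = 6), with 5 of 6 LOS libraries below the control median and LOS 1 above every control. The liver form PFKL went the other way, at 42.9 ± 5.29 and 48.1 ± 9.42 CPM, with 5 of 6 LOS libraries above the control median. The muscle form PFKM ranged from 14.47 to 27.87 CPM over both groups. None of these forms was called (log2 fold changes of -0.29 ± 0.17 for PFKP, 0.19 ± 0.13 for PFKL and 0.10 ± 0.18 for PFKM). PFKFB3 and PFKFB4 make fructose 2,6-bisphosphate, the activator of phosphofructokinase. PFKFB3 was at 25.13 to 30.29 CPM in 4 controls and at 9.67 CPM in control 5, and from 12.39 to 29.76 CPM in LOS. PFKFB4 was at 6.08 to 9.43 CPM in controls and 4.1 to 11.2 CPM in LOS.

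The enzymes from GPI to PKM are the payoff chain of the pathway and its supply. GAPDH, which oxidizes glyceraldehyde 3-phosphate and is widely used as a reference gene, was at 936.4, 934.7, 1284, 1079 and 1520 CPM in controls 1 to 5. In LOS 1 to 6 it was at 1194, 1242, 1085, 1348, 1059 and 1765 CPM. Its highest level was thus 1.89-fold its lowest, with the groups overlapping from 1059 to 1520 CPM (0.20 ± 0.14 on the log2 scale). PGK1, the X-linked phosphoglycerate kinase (chromosome X, 74244892 to 74267571, minus strand), lay between 92.19 and 145.9 CPM in controls and between 101.2 and 176.2 CPM in LOS. TPI1 (117.1 to 181.7 CPM in controls, 118.3 to 194.5 CPM in LOS) and PGAM1 (143.1 to 228.8 and 151.0 to 256.2 CPM) had the same lowest control, control 2, and the same highest library, LOS 6. PKM, pyruvate kinase, was highest in control 5 at 1940 CPM, and its LOS range was 982.7 to 1487 CPM. ALDOA (log2 fold change -0.07 ± 0.12), ENO1 (0.08 ± 0.12) and GPI (-0.06 ± 0.10) were among the steadier enzymes. ENO1 was at 407.1 to 457.8 CPM in all 5 controls but from 352.2 CPM in LOS 5 to 568.3 CPM in LOS 6. The isoforms known from nerve cells, ALDOC (13.99 to 28.55 CPM over both groups) and ENO2 (6.1 to 17.5 CPM, with LOS 4 on top), were also present. Of the 15 glycolytic enzyme genes, 10 had a fold change above 0 in LOS and 5 below it, and 0 were called. Without LOS 6 the count above 0 was 5 of 15. Levels are not compared between genes, as transcript lengths were not used here.

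**Figure D3:**
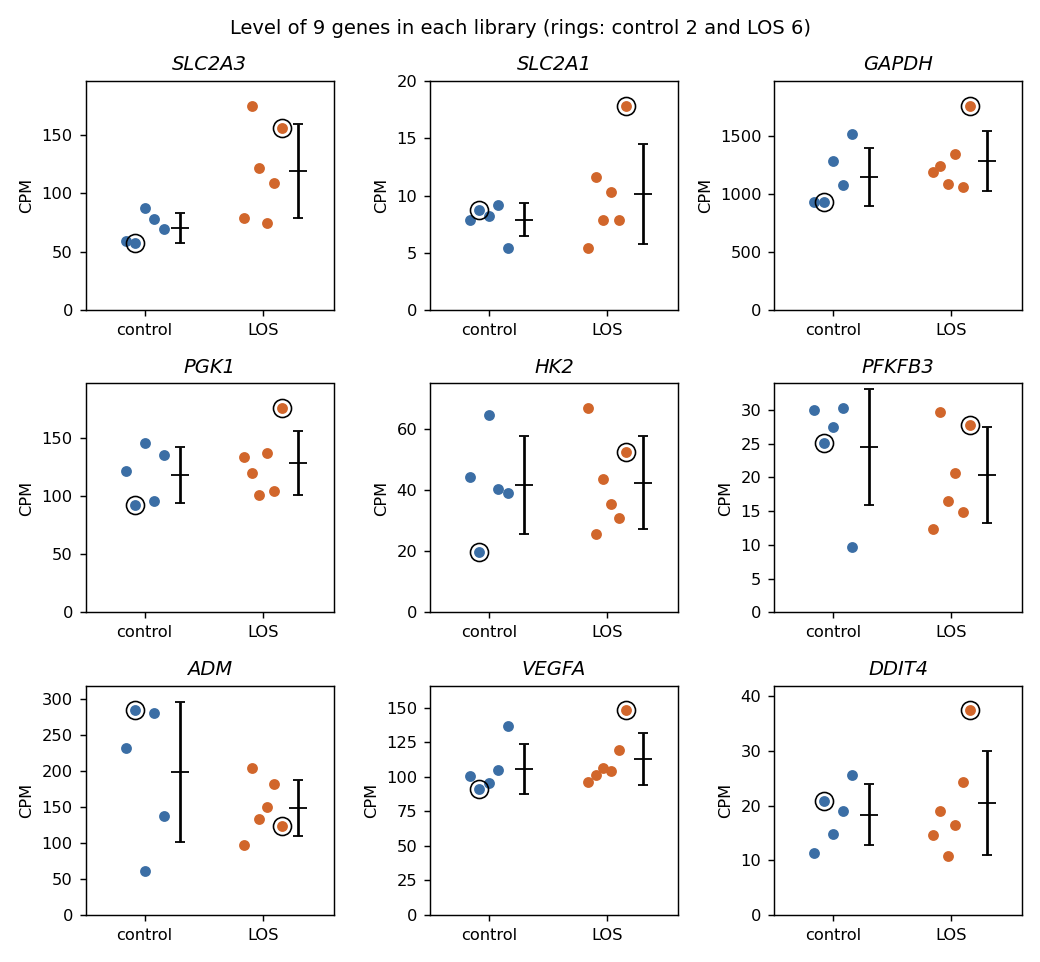
Level in CPM (y axis, from 0) of 9 genes in each control (blue) and LOS (orange) library, with the mean and SD of each group in black and rings around control 2 and LOS 6. In SLC2A3, 4 of 6 LOS points lie above the highest control at 87.63 CPM, and LOS 1 and LOS 4 lie within the control range. In each of the 9 genes the ranges of the groups overlap.

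Pyruvate is turned to lactate by LDHA and LDHB, or enters mitochondria through the pyruvate dehydrogenase subunit PDHA1, which PDK1 switches off. LDHB (114.3 to 141.6 CPM over both groups) and PDHA1 (77.87 to 96.48 CPM) were among the steadiest genes measured: 3.07% of all tested genes had a smaller standard deviation of log2 CPM than LDHB, and 4.79% a smaller one than PDHA1. LDHA varied more, at 130.3 to 205.4 CPM in controls and 134.6 to 218.1 CPM in LOS, with LOS 1 and LOS 6 at the top. PDK1 ran from 14.52 to 22.76 CPM over both groups (-0.02 ± 0.16 on the log2 scale). The lactate importer and exporter SLC16A1 was at 17.44 to 23.51 CPM in 4 controls and 38.58 CPM in control 3, and at 16.86 to 25.47 CPM in 5 LOS libraries and 37.75 CPM in LOS 1.

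SLC16A3 (MCT4), a lactate exporter of highly glycolytic cells, was barely detected. It had 2, 1, 1, 0 and 2 reads in controls 1 to 5. In LOS 1 to 6 it had 1, 1, 11, 1, 10 and 22 reads. LOS 3, LOS 5 and LOS 6 thus stood above every control, at 0.829, 0.756 and 1.16 CPM, and the other 3 LOS libraries within the control range. Its log2 fold change of 2.67 ± 0.92 (edgeR adjusted p = 0.932, unadjusted p = 0.0146) depends on the small count added to each library before taking logs. CA9, a carbonic anhydrase and a sensitive hypoxia marker, was too scarce to test, with 0 to 4 reads in controls, 1 to 4 in 5 LOS libraries and 15 in LOS 6 (0.793 CPM). LOS 6 thus had the highest count of both genes.

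The 3 oxygen sensing genes had fold changes below 0, and none was called. That of EGLN3, -0.13 ± 0.37 on the log2 scale, turned to 0.090 without control 4. HIF1A was at 122.1 to 194.9 CPM in controls and 133.0 to 191.2 CPM in LOS (-0.08 ± 0.14 on the log2 scale). EGLN1, the main HIF prolyl hydroxylase, was at 34.32 to 36.43 CPM in all 5 controls and at 28.91 to 39.14 CPM in LOS, with 5 of 6 LOS libraries below the control median (-0.09 ± 0.09). EGLN3, itself a HIF target, was the most variable of these, at 5.28 to 14.3 CPM in controls and from 4.57 CPM in LOS 2 to 18.6 CPM in LOS 1.

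Among the other hypoxia response genes, 7 of 8 tested had a fold change above 0 and 0 were called. Without LOS 6 the count above 0 was 4 of 8. VEGFA was at 100.3, 91.35, 95.17, 105.2 and 136.8 CPM in controls 1 to 5 and at 96.43, 101.5, 106.5, 104.3, 119.6 and 148.0 CPM in LOS 1 to 6. Its 2 highest libraries were LOS 6 and control 5 (0.12 ± 0.12 on the log2 scale). The exception in direction was ADM, the vasodilator peptide adrenomedullin, at 231.8, 284.6, 61.0, 280.7 and 137.5 CPM in controls 1 to 5. It was at 97.17, 204.9, 134.2, 150.5, 182.1 and 124.4 CPM in LOS 1 to 6. All LOS libraries were below the control median, yet the controls alone spanned the whole LOS range (-0.41 ± 0.34). DDIT4 (REDD1), a stress-induced brake on mTORC1, ran from 10.7 CPM in LOS 3 to 37.4 CPM in LOS 6. The collagen prolyl hydroxylase subunits P4HA1 and P4HA2 were at 74.86 to 141.1 CPM and 274.3 to 411.9 CPM in controls, and at 77.13 to 137.1 CPM and 286.1 to 514.7 CPM in LOS, with P4HA2 highest in LOS 6. The histone demethylase KDM3A (0.15 ± 0.15), the stress gene NDRG1 (0.08 ± 0.15) and the mitophagy receptor BNIP3 (0.06 ± 0.16) were within their standard error or close to it. Without control 2 NDRG1 moved to -0.04, and without LOS 6 BNIP3 moved to -0.07, DDIT4 to -0.04 and P4HA2 to -0.04.

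Other genes of these pathways, from lists that leave out the 37, likewise held 0 called genes. Of 31 tested further glycolysis and pyruvate genes, 12 had a fold change above 0 and 19 below it. TIGAR, which lowers fructose 2,6-bisphosphate, averaged 34.2 ± 1.601 CPM in controls (SD, n = 5) and 29.2 ± 3.20 CPM in LOS (SD, n = 6). The insulin-responsive transporter SLC2A4 had a mean of 1.16 CPM in the 5 controls, against 0.441 CPM in LOS. The inositol transporter SLC2A13 averaged 40.6 and 47.9 CPM, and the pyruvate dehydrogenase phosphatase PDP2 21.7 and 25.9 CPM, in that order. All 4 of these, PPP1R3C and PIK3CA had an unadjusted p under 0.05, which makes 6 of the 137 genes tested in the 6 lists (4.38%), against 4.44% of all genes. Of 19 tested genes of oxygen sensing and HIF regulation, 11 were above 0 and 8 below, with the smallest p on each side in SIAH1 (0.18 ± 0.11) and HIF3A (0.46 ± 0.34), and in ARNT2 (-0.35 ± 0.26) and P4HTM (-0.20 ± 0.22). Of 39 further hypoxia response genes, 24 were above 0 and 15 below. The transcription factor MAFF stood at 14.5 and 9.86 CPM, the collagen cross-linking enzyme LOXL2 at 762 ± 173 and 595 ± 96.0 CPM (SD, n = 6 and 5), the growth factor carrier IGFBP3 at 96.9 and 139 CPM and FAM162A at 5.90 and 6.998 CPM in LOS and control, in that order. The pentose phosphate genes divided into 6 above and 5 below, with RBKS at -0.31 ± 0.24, PGLS at 0.07 ± 0.11 and PRPS2 at 0.05 ± 0.10. Glycogen genes divided into 7 and 7 (means of LOS against control follow), with the glycogen targeting subunits PPP1R3C (14.7 against 21.2 CPM) and PPP1R3B (23.9 against 29.0 CPM) lower, and UGP2 (204 against 163 CPM) and PYGL (74.8 against 63.3 CPM) higher in mean, none of them called. Upstream regulators divided into 13 and 10, with PIK3CA at 136 against 111 CPM and MLXIP at -0.15 ± 0.13.

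No gene of the set passed the test of sex. Of the 36 genes 0 were called, against 0.0472% of all genes, and 26 were higher in males, against 49.9% of all genes. LOS 6, the highest library in 15 of the 36, was male, and control 2, the lowest in 15, was female. How far the count of 26 rests on these libraries was not tested. At an unadjusted p under 0.05 there were 3, where 3.3% of all genes lay under it in either direction and 1.51% on the higher side in males. These were GAPDH, at 1342 ± 270 CPM in males (SD, n = 6) and 1078 ± 142 CPM in females (SD, n = 5), VEGFA, at 118 ± 20.6 and 99.2 ± 5.68 CPM, and DDIT4, at 23.0 ± 8.27 and 15.3 ± 4.55 CPM, each with an edgeR adjusted p of 0.999. LOS 6 had the highest level of all 3, and control 2 the lowest of GAPDH and VEGFA. The X-linked genes PGK1 and PDHA1 were at 114 ± 16.8 and 85.4 ± 7.56 CPM in females and at 133 ± 29.1 and 91.0 ± 4.92 CPM in males, so that neither was higher in the mean of the sex with an extra X chromosome. The group by sex interaction, which tests whether the LOS effect differs between the sexes, was called in 0 of 36 genes (smallest edgeR adjusted p = 0.921). It was under an unadjusted p of 0.05 in 0 of 36 genes, against 4.95% of all genes.

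Several genes varied together from fetus to fetus. Over the 11 libraries, all 630 pairs of the 36 genes were correlated on log2 CPM, with Benjamini-Hochberg adjustment over the 630 and 100000 permutations, of which the smallest possible p is 1e-05. The median Pearson r was 0.19 and 62.5% of pairs were positive, against -0.001 and 49.9% over all 143574985 pairs of tested genes. These points share their library and its scaling. An absolute r of 0.9 or more was met by 4 of the 630 pairs (0.635%), against 0.0893% of all pairs. By Pearson's r 6 pairs were called, 4 positive and 2 negative, and by Spearman's rho 8. With levels scaled by library totals alone, 5 pairs were called by r, of which 1 was negative, and 5 by rho.

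The tightest trio were 3 glycolytic enzymes encoded on different chromosomes, TPI1 (chromosome 5, 103580104 to 103583461), PGK1 (chromosome X) and PGAM1 (chromosome 26, 18649174 to 18655669). TPI1 and PGAM1 had r = 0.974 (permutation p = 1e-05, adjusted p = 0.00315) and rho = 0.964 (permutation p = 5e-05, adjusted p = 0.0157), and r was 0.976 without control 2 and LOS 5, the libraries farthest from the TPI1 median. PGK1 and PGAM1 had r = 0.971 (permutation p = 1e-05, adjusted p = 0.00315) and rho = 0.955 (permutation p = 2e-05, adjusted p = 0.0126), and r stayed at 0.971 without LOS 6 and control 2. TPI1 and PGK1 had r = 0.929 (permutation p = 4e-05, adjusted p = 0.0084) and rho = 0.9 (permutation p = 0.00036, adjusted p = 0.0324), with r = 0.934 without control 2 and LOS 5. Control 2, control 4, LOS 3 and LOS 5 formed the low end of all 3 genes, and LOS 6 the high end, so that both groups were spread along the same line. GAPDH (103870384 to 103874667) and ENO2 (103538376 to 103546537) lie near TPI1 on chromosome 5, and neither was called with it (r = 0.704 with permutation p = 0.0158 and adjusted p = 0.156 for GAPDH, and r = 0.282 with permutation p = 0.401 and adjusted p = 0.693 for ENO2). By rank, PKM was called with each of the trio (rho = 0.909 with PGAM1, 0.891 with TPI1 and 0.909 with PGK1, permutation p = 0.00033, 0.00061 and 0.00031, adjusted p = 0.0324, 0.048 and 0.0324), and so were ALDOA and HIF1A (rho = 0.909, permutation p = 0.00036, adjusted p = 0.0324), 4 pairs named after their values were seen. Scaled by totals alone, TPI1 with PKM (adjusted p = 0.0963) and ALDOA with HIF1A (adjusted p = 0.139) were no longer called by permutation of rho.

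HK2 and HIF1A (chromosome 10, 73836385 to 73881302) also went together, with r = 0.896 (permutation p = 7e-05, adjusted p = 0.0101) and rho = 0.864 (permutation p = 0.00113, adjusted p = 0.0557), and r = 0.819 without control 2 and LOS 1. HK2 and PFKM went opposite ways, with r = -0.903 (permutation p = 0.0003, adjusted p = 0.0315) and rho = -0.873 (permutation p = 0.00087, adjusted p = 0.0557), and r = -0.854 without the same libraries. PFKP and KDM3A did so too, with r = -0.881 (permutation p = 8e-05, adjusted p = 0.0101) and rho = -0.864 (permutation p = 0.00115, adjusted p = 0.0557), and r = -0.9 without LOS 6 and LOS 5. This pair was not called when scaled by totals alone (r = -0.721, permutation test, adjusted p = 0.167). The fifth positive pair, ALDOA and PKM (r = 0.88, permutation p = 0.00062, adjusted p = 0.0558, rho = 0.827, permutation p = 0.00281, adjusted p = 0.0873), was not called and came to r = 0.751 without control 5 and control 2. The third negative pair, HK1 and SLC16A3 (r = -0.79, permutation p = 0.00513, adjusted p = 0.108, and r = -0.637 without LOS 5 and LOS 6), passed by rank (rho = -0.909, permutation p = 0.0003, adjusted p = 0.0324) but not when scaled by totals alone (adjusted p = 0.118). SLC16A3 had at most 2 reads in 8 of 11 libraries, whose order then follows library size, so that no co-variation is read from this pair.

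**Figure D4:**
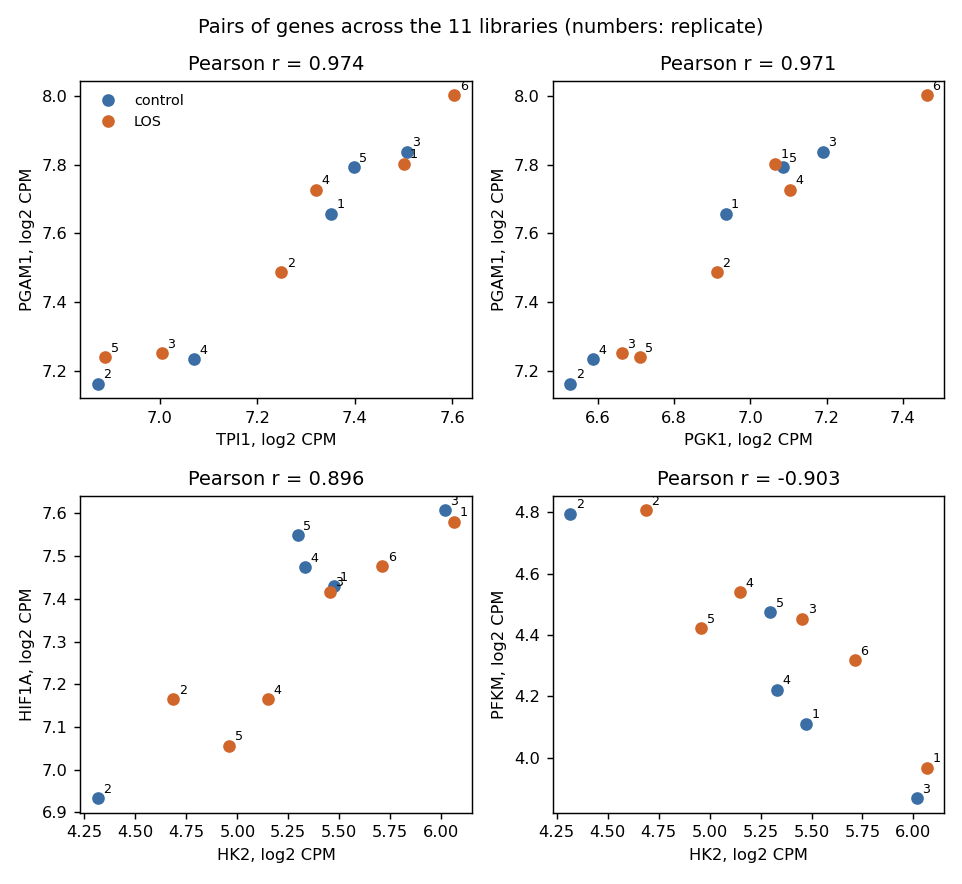
Log2 CPM of 4 pairs of genes across the 5 control (blue) and 6 LOS (orange) libraries, each point labelled with its replicate number. TPI1 and PGK1 each rise with PGAM1 (r = 0.974 and 0.971), HK2 rises with HIF1A (r = 0.896) and falls with PFKM (r = -0.903), with both groups along each line.

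Reads over sites where the parents differ were assigned by the authors to the maternal or paternal allele, which asks whether both gene copies were used. Of the 26 genes in the allelic table, 19 were tested, having on average at least 20 allelic reads in a library and reads in 2 or more libraries of each group. Of the other 7, ALDOA had enough reads on average but in too few libraries, and ENO2, PFKFB4, BNIP3, ADM, SLC16A1 and DDIT4 had too few reads. The labels used here do not say which breed was the dam, so that an allele's parent and its breed cannot be told apart. Over libraries with 10 or more allelic reads, the mean maternal share of the 19 genes lay between 37.3% and 53.6%, so that reads of both copies were present. The highest mean, that of HK1, rests on 4 libraries. With edgeR's quasi-likelihood test on maternal against paternal reads, 4 of 19 were called, against 19.3% of all 6015 genes tested. All 4 had fewer maternal than paternal reads. Of the 1162 genes called over all those tested, 585 were on that side, which is 9.73% of the 6015 tested.

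EGLN3 (chromosome 21, 44387137 to 44416154) was the most uneven, with a mean maternal share of 37.3% ± 13.3 (SD, n = 11) on 22 to 184 reads per library. Its share was 53.4%, 24.64%, 45.95%, 31.52% and 53.33% in controls 1 to 5. In LOS 1 to 6 it was 50%, 38.71%, 16.67%, 35%, 18.18% and 43.01%. The share was below 50% in 8 libraries and above it in 2, and the low libraries belonged to both groups (log2 ratio of maternal to paternal reads -0.71 ± 0.19, edgeR adjusted p = 0.011). The call ended without control 4 (edgeR adjusted p = 0.0546), the library with the most reads. NDRG1 rested on the deepest coverage of the 4, 999 to 1953 reads per library, with 46.5% ± 3.61 maternal (SD, n = 11) and 8 of 11 libraries below 50% (-0.20 ± 0.06, edgeR adjusted p = 0.0156, and 0.0637 without control 5). GAPDH had at most 51 allelic reads per library and 41.6% ± 6.45 maternal over the 9 libraries with 10 or more (-0.53 ± 0.18, edgeR adjusted p = 0.0351). LDHA had at most 153 reads and 42.2% ± 6.29 maternal over 9 libraries (-0.42 ± 0.14, edgeR adjusted p = 0.0435). The GAPDH call ended in 8 and the LDHA call in 7 of the 11 fits that left out a library, with adjusted p up to 0.0805 and 0.104. Total counts of both were not whole in any library, and reads of near-identical copies elsewhere in the genome could enter either allele.

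The best covered gene, P4HA2, with 1533 to 3744 allelic reads per library, had 52.0% ± 2.11 maternal reads (SD, n = 11) and 10 of 11 libraries above 50% (0.11 ± 0.04, edgeR adjusted p = 0.0798). Without control 2 it was called (edgeR adjusted p = 0.0283). The glucose transporters were at 42.1% ± 8.95 (SLC2A1) and 49.4% ± 7.48 (SLC2A3), PKM at 50.9% ± 5.27, VEGFA at 49.5% ± 5.69 and HIF1A at 47.5% ± 7.37 (SD, n = 11 each), and none of these was called. Leaving out a library brought calls toward the paternal allele in SLC2A1 (edgeR adjusted p = 0.0347 without LOS 2), P4HA1 (0.0126 without LOS 3) and PFKL (0.0412 without control 3 and 0.0333 without LOS 5). The SLC2A3 shares of the 6 LOS libraries averaged 49.2% ± 8.94 against 49.7% ± 6.33 in the 5 controls (SD). The maternal share differed between LOS and control in 0 of 19 genes, and in 0% of all genes tested, by edgeR's test of the allele by group term (adjusted p = 0.9996 for each of the 19). At an unadjusted p under 0.05 there were 0 of 19, against 4.46% of all genes.

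**Figure D5:**
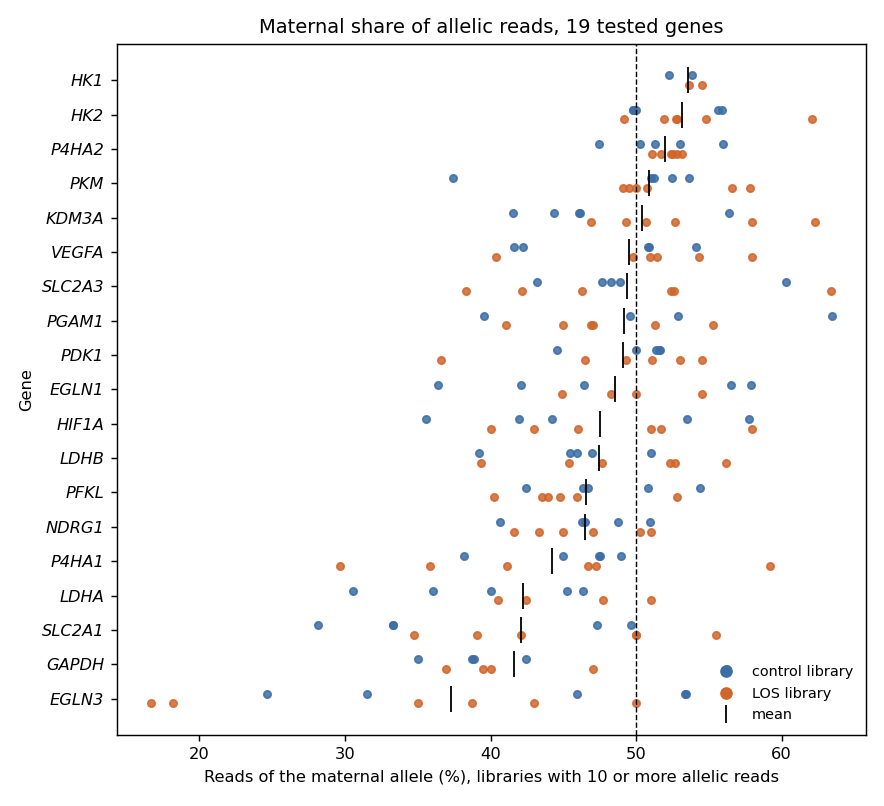
Share of allelic reads from the maternal copy (x axis, percent) in each control (blue) and LOS (orange) library with 10 or more allelic reads, for the 19 tested genes (y axis, ordered by their mean, the black mark). Means run from 37.3% for EGLN3 to 53.6% for HK1, the latter over only 4 libraries. Control and LOS points are intermingled, and the dashed line marks 50%. In P4HA1 10 of 11 points lie below it, in GAPDH and LDHA 8 of 9, and in P4HA2 10 of 11 lie above it.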

How the data were processed

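Total RNA depleted of ribosomal RNA was sequenced from 11 fibroblast cultures, 1 library per fetus. The submitters' processing notes name HISAT2 2.1.0, StringTie 2.1.4, Salmon 0.11.1, GATK and edgeR 3.36.0 among others, with build ARS-UCD1.2. How reads were counted, whether by strand, and how sites differing between the parents were found is not stated in the labels. The authors deposited expected counts per gene for 21862 annotated genes and 5536 assembled loci, not normalized. Their allelic table, per the file headers, holds whole read counts per parental allele. Another of the deposited tables gives expected counts multiplied by the allelic share. For the 16 genes of the set in it, 0 of 352 values departed from that product by more than 0.01, and it was not used further. In 9 of the 37 genes a total count was not whole (tolerance 0.01) in at least 1 library, against 32.7% of all genes. These were SLC2A3, GAPDH, PGAM1, LDHA, LDHB, KDM3A, PDHA1, CA9 and P4HA2, whose reads may be shared with other loci. Total counts were 12084822 to 19297167 per library.

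Expected counts were rounded and tested in R 4.3.3 with edgeR 4.0.16: TMM (trimmed mean of M values) factors, filterByExpr, and the quasi-likelihood test over all genes, fitted on group plus sex, Benjamini-Hochberg adjusted. Log2 fold changes are LOS minus control, and CPM use TMM library sizes. The allelic model had a term for each library, allele and allele by group. It covered autosomal genes averaging at least 20 allelic reads in a library, present in 2 or more libraries per group. The limit to autosomes and the minimum of 2 libraries were set after the design was written. Correlations used log2 CPM with a prior count of 2. Alternatives were DESeq2 1.42.0, limma voom 3.58.1, other scalings and filters, no sex term, a replicate block and leaving out each library. The scripts were tested on simulated data. The 37 genes, the pathway lists and the marker lists were chosen with earlier results of these data known. All 37 genes were reported, with the 5 most positive and 3 most negative pairs and up to 2 genes per direction of each pathway list by smallest p. Some genes that this rule picks from the pathway lists are not reported here.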

Additional observations from a re-analysis of the deposited data

Results flagged for a closer look

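Levels of the 37 genes and maternal shares of the 19 tested genes were screened within each group by Dixon's ratio, the gap of an extreme library to its neighbour over the range of the group. Chance flags about 1 in 20 groups, and 7 of 110 groups of values were flagged. Among controls, control 5 was at 52.03 CPM for PFKL, the next control being at 41.68 CPM, and at 9.67 CPM for the phosphofructokinase activator enzyme PFKFB3, where the next was at 25.13 CPM. Control 3 was at 38.58 CPM for the lactate transporter SLC16A1, with the next at 23.51 CPM. In allelic reads, control 3 had 37.44% maternal reads of PKM and the next control 51.0%, and control 1 had 44.59% of PDK1 and the next 50%. In LOS, LOS 6 was at 0.793 CPM for CA9 (15 reads) with the next library at 0.302 CPM, and LOS 1 was at 18.55 CPM for EGLN3 with the next at 9.27 CPM.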

How the results depend on the processing

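In 693 of 751 refits of LOS against control for a gene of the set, direction and side of the threshold were those reported. No gene of the set was called in any of them, so this count speaks to direction only. Allelic refits, in which calls were lost and gained as given above, are not part of it. Calls of all genes under DESeq2 were 5 for LOS against control, 22 for sex and 6 for the interaction. Without unannotated loci the sex test called 3 genes. Correlations of residuals from group and sex called 13 pairs. Leaving out a library gave 3 to 7 genes for sex and 0 to 1 for the share between groups. Between libraries of the same replicate number, correlations of deviations from the group mean were -0.166 to 0.257, with 2 of 5 controls closest to their own number. Sex was not removed from these deviations, so they cannot decide whether the numbers pair the libraries. A replicate block on numbers 1 to 5, without LOS 6, called 0 genes, put 14 of 36 genes above 0 and turned HK2 to -0.027, ALDOC to -0.0063, TPI1 to -0.047, PGAM1 to -0.034, ENO1 to -0.0042, LDHA to -0.047, PDK1 to 0.038, PFKFB4 to -0.042, BNIP3 to -0.044, P4HA2 to -0.0084, SLC16A1 to 0.059 and DDIT4 to -0.10. Scaling by totals alone turned TPI1 to -0.019, BNIP3 to -0.0053 and P4HA1 to -0.0012, and left 19 of 36 above 0. limma voom turned the SLC2A3 allelic ratio to 0.0018. Causes were not tested. Leaving out a library turned the sign in 18 of 36 genes, over these log2 ranges: ALDOA -0.14 to 0.0031, ALDOC -0.010 to 0.25, BNIP3 -0.066 to 0.13, DDIT4 -0.039 to 0.40, EGLN3 -0.43 to 0.090, ENO1 -0.0017 to 0.16, HK2 -0.18 to 0.24, LDHA -0.049 to 0.14, NDRG1 -0.043 to 0.17, P4HA1 -0.082 to 0.18, P4HA2 -0.038 to 0.20, PDHA1 -0.057 to 0.022, PDK1 -0.13 to 0.051, PFKFB4 -0.012 to 0.29, PGAM1 -0.021 to 0.16, PKM -0.098 to 0.13, SLC16A1 -0.23 to 0.21 and TPI1 -0.052 to 0.13. It turned the allelic ratio of HIF1A (-0.22 to 0.0053), KDM3A (-0.062 to 0.051), PDK1 (-0.081 to 0.028), PGAM1 (-0.14 to 0.11), SLC2A3 (-0.10 to 0.035) and VEGFA (-0.079 to 0.026). On simulated counts of 16598 genes, LOS against control recovered 59% of 2-fold and 86% of 4-fold changes, with 13 false calls. Differences of these sizes and smaller could thus be missed at this number of fetuses. On simulated allelic reads of 6015 genes, the test of the share between groups recovered 19% of shifts in LOS to a maternal share of 0.6. It recovered 73% of shifts to 0.7, with 6 false calls, so that shifts in share could be missed too.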
